A study of Homo sapiens with 6 samples.

Results

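The mRNAs of 10 heat shock chaperones and co-chaperones were followed in LX-2 cells, an established line of human hepatic stellate cells, the liver cells that lay down scar matrix. The genes are HSPA8, HSPA1A, HSPA1B, HSPH1, DNAJB1, BAG3, HSP90AA1, HSPB1, HSPD1 and HSPE1. The rule takes them by gene symbol and uses none of their values, but the members were chosen with earlier results of these data known. All 10 were among the 32750 gene rows and passed the filter on low counts that left 15372 genes. RNA was sequenced from 3 libraries labelled as transfected with siRNA against ATP6AP1, a helper protein of the V-ATPase, the pump that acidifies lysosomes, and 3 libraries labelled as transfected with a non-targeting siRNA. Every library carries the genotype label wild type, and the cells come from 1 line. The submitters describe the 3 libraries of a group as independent biological replicates, and the comparison asks which transcripts differ between the siRNAs.

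Chaperones of the HSP70 class bind unfolded stretches of protein and cycle between ATP and ADP, J-domain proteins such as DNAJB1 bring them clients and start ATP hydrolysis, and HSP110 and BAG proteins let the nucleotide go. HSP90 acts on partly folded clients such as kinases and hormone receptors, small heat shock proteins hold unfolded proteins until HSP70 takes them over, and the HSP60 and HSP10 chaperonin encloses proteins inside mitochondria. After heat or other protein damage, heat shock factor HSF1 binds heat shock elements, which are alternating GAA and TTC units in the promoters of these genes, while HSPA8 and the mitochondrial pair are also made at high levels in unstressed cells.

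In the libraries labelled ATP6AP1 siRNA, 5 of the 10 mRNAs fell, where 26.6% of all tested genes were lowered, none rose, where 26.7% were raised, and 5 did not pass the test (edgeR's quasi-likelihood F test, Benjamini-Hochberg adjusted p, threshold 0.05). HSPA8, the constitutive HSP70, fell most, 1.77-fold, followed by the mitochondrial chaperonin HSPD1, 1.52-fold, and the stress-inducible HSPA1A, 1.51-fold. HSPB1, the small heat shock protein also called HSP27, fell 1.43-fold and HSPE1, the partner of HSPD1, fell 1.35-fold. HSPA1B, HSPH1, DNAJB1, BAG3 and HSP90AA1, which include several of the classic heat-inducible genes, did not pass. HSPA1A and HSPA1B are near-identical copies, and their summed reads did not pass either, so the fall of HSPA1A alone is uncertain.

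These counts stand against a comparison in which much of the transcriptome differed. Of the 15372 genes tested, 53.3% changed, and the median log2 fold change was -0.0043. Among the 10 chaperones the share lowered was 5 of 10, their median log2 fold change was -0.31, and 9 of 10 values lay below 0. With library size alone in place of TMM scaling, their median was -0.17 and 6 of 10 lay below 0, while 5612 genes were raised and 2737 lowered over all genes (median 0.13). The count of 0 raised chaperones was also 0 at an unadjusted p under 0.05, with DESeq2 and with limma-voom. It was 1 with library size alone (HSPH1, edgeR adjusted p = 0.0398). In bulk RNA, fewer cells of a type and less RNA per cell cannot be told apart.

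The libraries held 15644464 to 17880546 counts in the ATP6AP1 siRNA group and 17700222 to 19656533 counts in the control siRNA group. ATP6AP1 itself went against its label. In CPM, which normalises read counts to library size, it had 143, 146 and 140 in the libraries labelled ATP6AP1 siRNA, against 116, 117 and 129 in control libraries, 1.19-fold higher (edgeR, log2 fold change 0.25, SE 0.0608, adjusted p = 0.00425). Directions below are therefore those of the libraries as labelled, not of a measured depletion. Stellate cell markers were present, and all 9 tested of 10 were lowered (median log2 fold change -0.75), with VIM, the filament protein vimentin, at 2753 ± 111 CPM in ATP6AP1 siRNA libraries and 4672 ± 181 CPM in control libraries (SD, n = 3 each). The summed marker level was 4385 to 4899 CPM in ATP6AP1 siRNA libraries and 6813 to 7318 CPM in control libraries, and its part in the chaperone results was not tested. TAGLN, the other most abundant stellate marker, fell too, but 65.5% of its 50-base windows also occur in another gene. Hepatocyte markers summed to 5.11 to 6.66 CPM and 7.55 to 8.47 CPM, macrophage markers to 3.19 to 4.73 CPM and 3.95 to 4.62 CPM, endothelial markers to 0.783 to 1.28 CPM and 1.01 to 1.48 CPM, and cholangiocyte markers to 6.32 to 7.61 CPM and 4.07 to 6.46 CPM, in ATP6AP1 siRNA and control libraries in each case. In each of those lists 1 marker was tested: SERPINA1, a hepatocyte product, fell, and CD14, CDH5 and KRT7 did not pass. KRT7, a cholangiocyte keratin, was called raised with library size alone (adjusted p = 0.0409) and without control replicate 2 (log2 fold change 0.54 against 0.33, edgeR adjusted p = 0.0344). No marker with a row was at 0 in all libraries.

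The promoters are shown first because heat shock elements are the known common feature of these genes. Each sequence is the 250 bases before the transcript start in RefSeq (GRCh38.p14), read on the gene's own strand, and capitals mark the heat shock element letters: the pair GAANNTTC, the pair TTCNNGAA, and the triples GAANNTTCNNGAA and TTCNNGAANNTTC. Each pair reads the same on both strands, each triple is the reverse complement of the other, and a triple holds 1 pair of each kind overlapping by a unit. HSPA8 is shown as the chaperone with the largest fall, HSPD1 as the mitochondrial chaperone with the largest fall, HSP90AA1 as a carrier of a triple that did not pass the test, and the HSPA1A and HSPA1B copies because their promoters can be set side by side.
HSPA8, chr11:123062137-123062386, minus strand: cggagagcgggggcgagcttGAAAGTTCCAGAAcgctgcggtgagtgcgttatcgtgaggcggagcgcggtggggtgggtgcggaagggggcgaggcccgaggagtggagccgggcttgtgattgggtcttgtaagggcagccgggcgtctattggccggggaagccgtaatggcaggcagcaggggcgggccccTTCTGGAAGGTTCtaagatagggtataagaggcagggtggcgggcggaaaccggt
HSPD1, chr2:197499841-197500090, minus strand: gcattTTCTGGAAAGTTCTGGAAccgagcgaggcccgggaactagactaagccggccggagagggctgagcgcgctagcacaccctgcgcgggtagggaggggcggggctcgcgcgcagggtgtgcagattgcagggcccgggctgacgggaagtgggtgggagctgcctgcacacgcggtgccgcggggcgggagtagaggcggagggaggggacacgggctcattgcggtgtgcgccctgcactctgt
HSP90AA1, chr14:102087045-102087294, minus strand: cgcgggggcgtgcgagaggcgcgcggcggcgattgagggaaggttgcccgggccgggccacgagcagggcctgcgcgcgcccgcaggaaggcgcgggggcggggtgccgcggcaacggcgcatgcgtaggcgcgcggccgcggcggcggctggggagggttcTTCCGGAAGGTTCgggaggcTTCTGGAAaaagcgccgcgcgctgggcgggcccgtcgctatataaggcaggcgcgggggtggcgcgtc
HSPA1A, chr6:31815293-31815542, plus strand: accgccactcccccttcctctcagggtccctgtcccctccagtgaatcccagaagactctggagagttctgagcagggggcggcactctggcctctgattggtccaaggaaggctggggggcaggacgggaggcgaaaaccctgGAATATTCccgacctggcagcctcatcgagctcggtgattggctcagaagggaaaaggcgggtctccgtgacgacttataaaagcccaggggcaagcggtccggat
HSPA1B, chr6:31827488-31827737, plus strand: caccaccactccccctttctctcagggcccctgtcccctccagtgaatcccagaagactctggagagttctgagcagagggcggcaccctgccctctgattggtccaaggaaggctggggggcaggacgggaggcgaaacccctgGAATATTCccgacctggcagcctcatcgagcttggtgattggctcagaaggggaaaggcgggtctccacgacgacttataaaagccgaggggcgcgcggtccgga

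All 10 genes had a RefSeq window, and the window nearest the start of the main GENCODE transcript was used. Of these 10 windows, 7 held a pair, against 11.6% of 35116 windows in RefSeq. Further RefSeq windows of HSP90AA1, DNAJB1 and HSPD1, at other starts, held no pair, while the RefSeq share counts every window. A triple was found in 3 of them, HSPA8, HSPD1 and HSP90AA1, against 0.441% of all windows. HSPA8 carried 2 separate triples, with the first pair beginning 230 and the last 50 bases before the start. In HSPD1, 2 triples overlapped in 1 run of 4 units that lay 245 to 235 bases before the start, counted by the first bases of the matches. The match nearest the start of HSP90AA1 began 68 bases before it.

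HSPA1A, HSPA1B and HSPB1 each held 1 pair and DNAJB1 held 2, while HSPH1, HSPE1 and BAG3 held none in this window. The absence says only that these letters are not in these 250 bases. For HSPH1 the RefSeq start used here lay 484 bases from the start of the main GENCODE transcript. HSPD1 and HSPE1 are transcribed away from each other from starts 539 bases apart. The nearest edge of the run of units in the HSPD1 window lay 294 bases from the HSPE1 start. The run thus lay between these starts but outside the HSPE1 window. The promoter windows of HSPA1A and HSPA1B were identical at 235 of 249 aligned bases (94.4%), each with the same pair GAATATTC. Of the 3 chaperones with a triple, HSPA8 and HSPD1 fell and HSP90AA1 did not pass. Of those with pairs but no triple, HSPA1A and HSPB1 fell, and HSPA1B and DNAJB1 did not pass. Of the 3 with no match in the window, HSPE1 fell, and HSPH1 and BAG3 did not pass. A link between the matches and the falls was not tested.

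**Figure D1:**
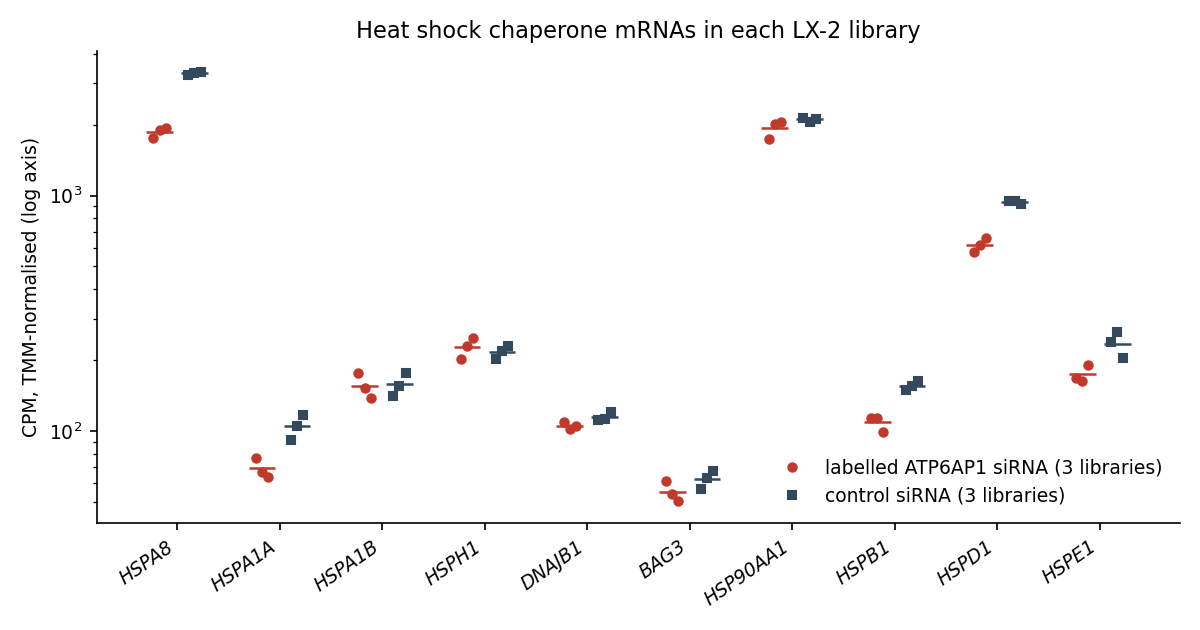
CPM of the 10 chaperone mRNAs on a log axis, 1 point for each library, with ATP6AP1 siRNA libraries (red circles) left of control siRNA libraries (dark squares) and a line at each group's mean. The 3 ATP6AP1 siRNA points of HSPA8 sit at 1760 to 1934 CPM, below its 3 control points at 3245 to 3343 CPM, while the points of HSPA1B, HSPH1 and BAG3 overlap.

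HSPA8 (ENSG00000109971, chromosome 11, 123057489 to 123063230, minus strand, GENCODE 44 on GRCh38), the HSP70 that folds newly made proteins and strips clathrin from vesicles, had 1760, 1905 and 1934 CPM in ATP6AP1 siRNA libraries, against 3245, 3320 and 3343 CPM in control libraries. Every ATP6AP1 siRNA library lay far below every control library. The means were 1866 ± 93.2 CPM in ATP6AP1 siRNA libraries and 3303 ± 51.3 CPM in control libraries (SD, n = 3 each), and the log2 fold change was -0.82 (SE 0.0542, 95% interval -0.94 to -0.71, edgeR adjusted p = 9.76e-08). Of all genes tested, 5.59% had a lower log2 fold change. HSPA8 reads were 0.196 ± 0.00855% of all counts in ATP6AP1 siRNA libraries and 0.315 ± 0.00390% in control libraries. Of its 50-base windows, 16.8% also occur in transcripts of other genes, and its 5 pseudogene rows held at most 0.0129% of its counts in any library. Exons of a gene on the opposite strand cover 11.4% of the HSPA8 exon bases, and that gene had at most 1.02 CPM by library size alone.

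HSPA1A (ENSG00000204389, chromosome 6, 31815543 to 31817946, plus strand) and HSPA1B (ENSG00000204388, chromosome 6, 31827738 to 31830254, plus strand) encode the stress-inducible HSP70, from starts 12195 bases apart. HSPA1A had 76.7, 67.3 and 64.1 CPM in ATP6AP1 siRNA libraries, against 91.9, 105 and 117 CPM in control libraries. HSPA1B had 176, 153 and 138 CPM in ATP6AP1 siRNA libraries, against 141, 156 and 177 CPM in control libraries. The HSPA1A values did not overlap and the HSPA1B values spanned the same range in both groups. The log2 fold change was -0.59 for HSPA1A (SE 0.0909, 95% interval -0.79 to -0.40, edgeR adjusted p = 0.000121) and -0.020 for HSPA1B (SE 0.0932, interval -0.22 to 0.18, adjusted p = 0.872).

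Of the 50-base windows of HSPA1A, 75.1% occur in HSPA1B, and 71.6% of those of HSPA1B occur in HSPA1A. Another annotated gene on the same strand, without a row in the counts, covers 36.6% of the HSPA1B exon bases. Summed, the copies had 253, 220 and 203 CPM in ATP6AP1 siRNA libraries, against 233, 261 and 294 CPM in control libraries. These overlap, with a log2 fold change of -0.22 (SE 0.0908, 95% interval -0.42 to -0.026, edgeR adjusted p = 0.0546). HSPA1A took 30.4, 30.6 and 31.6% of the summed reads in ATP6AP1 siRNA libraries, against 39.4, 40.3 and 39.9% in control libraries. The share was steadier within groups than the level of either copy, whose coefficients of variation ran from 9.51 to 12.2%. The counts of HSPA1A were whole (within 0.011) in 1 of 6 libraries, and the sum of the copies was whole by the same limit in 3 of 6, which shows that the deposited values divide some reads between genes. How the authors divided reads between the copies is not stated in the labels or notes, and its part in the shift of the share was not tested.

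HSPH1 (ENSG00000120694, chromosome 13, 31134973 to 31162388, minus strand), the HSP110 that releases ADP from HSP70, had 201, 230 and 249 CPM in ATP6AP1 siRNA libraries, against 202, 219 and 230 CPM in control libraries. The groups overlapped almost fully, and the log2 fold change was 0.063 (SE 0.0776, 95% interval -0.11 to 0.23, edgeR adjusted p = 0.521). HSPH1 alone of the 10 had a value above 0, and with library size alone in place of TMM scaling it passed as raised (adjusted p = 0.0398). Without ATP6AP1 siRNA replicate 3 its log2 fold change was -0.011, so its direction rests on 1 library.

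DNAJB1 (ENSG00000132002, chromosome 19, 14514769 to 14560391, minus strand), the J-domain HSP40 induced together with HSP70, had 109, 102 and 105 CPM in ATP6AP1 siRNA libraries, against 112, 112 and 121 CPM in control libraries. No ATP6AP1 siRNA library reached a control library, but the gap was small, with a log2 fold change of -0.12 (SE 0.0598, 95% interval -0.25 to 0.0054, edgeR adjusted p = 0.0981). BAG3 (ENSG00000151929, chromosome 10, 119651380 to 119677819, plus strand), which links HSP70 clients to autophagy, had 61.6, 53.9 and 50.3 CPM in ATP6AP1 siRNA libraries, against 56.5, 63.3 and 67.6 CPM in control libraries. The groups overlapped through ATP6AP1 siRNA replicate 1, with a log2 fold change of -0.18 (SE 0.0870, 95% interval -0.37 to 0.010, adjusted p = 0.102). Without that library BAG3 passed as lowered, with a log2 fold change of -0.26 (edgeR adjusted p = 0.0206). It was -0.099 without control replicate 3 (adjusted p = 0.432), -0.11 without ATP6AP1 siRNA replicate 3 and -0.040 with library size alone (adjusted p = 0.725).

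HSP90AA1 (ENSG00000080824, chromosome 14, 102080742 to 102139699, minus strand), the heat-inducible cytosolic HSP90, had 1733, 2022 and 2049 CPM in ATP6AP1 siRNA libraries, against 2143, 2058 and 2119 CPM in control libraries. The ranges did not meet, although ATP6AP1 siRNA replicates 2 and 3 came close to the controls and replicate 1 stood lower. The log2 fold change was -0.12 (SE 0.0653, 95% interval -0.26 to 0.018, edgeR adjusted p = 0.131), and -0.049 without ATP6AP1 siRNA replicate 1. The value for both HSP90AA1 and DNAJB1 was 0.013 with library size alone, so neither has a direction that holds across scalings. Exons of DNAJB1 also overlap those of TECR on the opposite strand over 6.41% of the DNAJB1 exon bases, and those of HSP90AA1 overlap WDR20 over 3.87%, and without the strand setting such reads cannot be told apart.

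HSPB1 (ENSG00000106211, chromosome 7, 76302673 to 76304295, plus strand), a small heat shock protein that also caps actin filaments, had 114, 114 and 98.7 CPM in ATP6AP1 siRNA libraries, against 149, 155 and 163 CPM in control libraries. The groups were well apart, at means of 109 ± 8.71 CPM in ATP6AP1 siRNA libraries and 156 ± 7.04 CPM in control libraries (SD, n = 3 each). The log2 fold change was -0.52 (SE 0.0687, 95% interval -0.67 to -0.37, edgeR adjusted p = 3.51e-05), and 13.5% of its 50-base windows also occur in other genes.

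HSPD1 (ENSG00000144381, chromosome 2, 197486584 to 197516737, minus strand), the HSP60 ring of the mitochondrial chaperonin, had 573, 618 and 663 CPM in ATP6AP1 siRNA libraries, against 950, 949 and 924 CPM in control libraries. Its lid HSPE1, or HSP10 (ENSG00000115541, chromosome 2, 197500140 to 197503449, plus strand), had 168, 163 and 191 CPM in ATP6AP1 siRNA libraries, against 238, 262 and 205 CPM in control libraries. Neither gene overlapped between groups, and HSPD1 was tight in controls, with a coefficient of variation of 1.53%, where HSPE1 had 12.3%. The log2 fold changes were -0.61 for HSPD1 (SE 0.0602, 95% interval -0.74 to -0.48, edgeR adjusted p = 3.08e-06) and -0.43 for HSPE1 (SE 0.0873, interval -0.62 to -0.25, adjusted p = 0.000997).

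HSPE1 is the less certain measurement of the pair. Of its 50-base windows, 48.2% occur in other genes, most of them (28.3% of all) in the readthrough transcript HSPE1-MOB4, whose own row held 2.03 ± 0.447 CPM in ATP6AP1 siRNA libraries and 1.73 ± 0.710 CPM in control libraries. Annotated exons of HSPD1 and HSPE1 also cover 135 bases in common on opposite strands, 7.41% of the exon bases of HSPE1, and the strand setting of the counting is not stated in the labels or notes. For HSPD1 27.1% of windows are shared, mostly with pseudogenes, of which 7 rows held at most 0.133% of its counts.

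**Figure D2:**
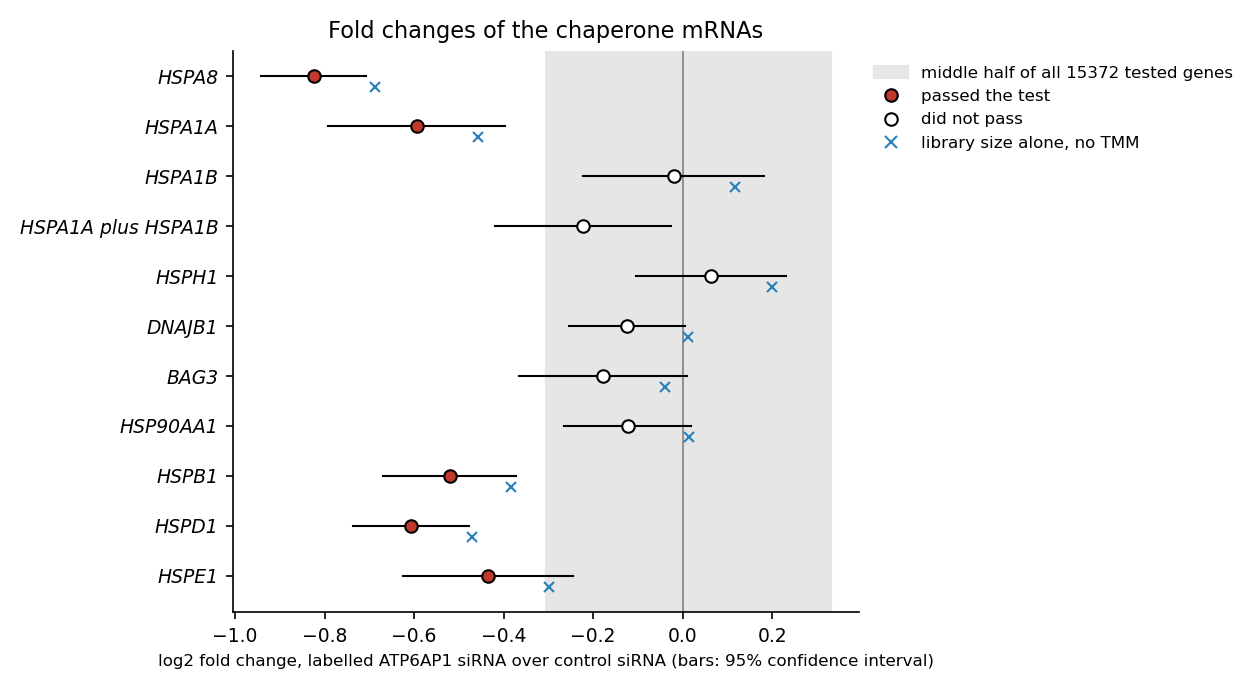
Log2 fold change of each chaperone mRNA, ATP6AP1 siRNA over control siRNA libraries, with 95% intervals derived from the edgeR F test. The summed HSPA1A and HSPA1B reads are included. The grey band spans the middle 50% of all 15372 tested genes, from -0.31 to 0.33. Filled points passed the test, and blue crosses give the value with library size alone. The intervals of HSPA8, HSPD1, HSPA1A, HSPB1, HSPE1 and the summed HSPA1 reads lie wholly below 0, although the sum did not pass after adjustment.

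In 7 of the 10 genes the 3 ATP6AP1 siRNA libraries all lay below the 3 control libraries, in 3 the groups overlapped, and in 0 they lay above, where 29.7% of all tested genes were wholly lower and 29.8% wholly higher. The 10 chaperones together took 0.525, 0.568 and 0.578% of all counts in ATP6AP1 siRNA libraries, against 0.702, 0.702 and 0.712% in control libraries. Most of that gap was HSPA8. The other 9 together took 0.361 ± 0.0196% in ATP6AP1 siRNA libraries and 0.391 ± 0.00310% in control libraries (SD, n = 3 each), still without overlap. HSP90AA1 took 0.203 ± 0.0172% in ATP6AP1 siRNA libraries and 0.201 ± 0.00512% in control libraries, as a share of raw counts.

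Within the control group 7 members shared 1 order, with control replicate 1 lowest and control replicate 3 highest, and these were HSPA1A, HSPA1B, HSPA8, HSPH1, DNAJB1, HSPB1 and BAG3. The ATP6AP1 siRNA libraries had no such common order. ATP6AP1 siRNA replicate 1 was the highest of its group in HSPA1A, HSPA1B, DNAJB1 and BAG3 and the lowest in HSPA8, HSPH1, HSP90AA1 and HSPD1. How many of all tested genes share the control order was not counted, so it cannot be called particular to the chaperones. Over all genes, control replicates 1 and 3 also differed most (chi-square per gene 6.79, against 3.46 and 4.42 for the other control pairs). HSPA1A and HSPA1B share reads and are not separate observations.

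By transcript level per kilobase of the main GENCODE transcript, HSPA8 was the most abundant, at 824 CPM per kb in ATP6AP1 siRNA libraries and 1459 CPM per kb in control libraries. HSP90AA1 followed with 599 CPM per kb in ATP6AP1 siRNA libraries and 653 CPM per kb in control libraries. In ATP6AP1 siRNA libraries HSPE1 stood at 312 ± 26.7 CPM per kb and HSPD1 at 275 CPM per kb, and in control libraries HSPE1 stood at 422 ± 52.1 CPM per kb and HSPD1 at 419 CPM per kb. These neighbours differed by less than the HSPE1 SD in control libraries and by more than it in ATP6AP1 siRNA libraries.

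HSPB1 was next, with 140 CPM per kb in ATP6AP1 siRNA libraries and 201 CPM per kb in control libraries, and HSPA1B had 61.9 CPM per kb in ATP6AP1 siRNA libraries and 62.7 CPM per kb in control libraries. DNAJB1, HSPH1, HSPA1A and BAG3 lay at 21.6 to 51.3 CPM per kb. Among these only the neighbours HSPH1 and HSPA1A changed places between groups, with HSPH1 at 43.2 CPM per kb above HSPA1A at 28.9 in ATP6AP1 siRNA libraries, and HSPH1 at 41.4 just below HSPA1A at 43.6 in control libraries, a control gap smaller than the SD of HSPA1A. The lower part of the order depends on the length used, since with all annotated exons merged DNAJB1 falls to the 10th place and HSPA1A stands above HSPH1 in both groups.

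Ratios within a library need no scaling between libraries, and 4 were compared with exact two-sided permutation tests, for which 0.1 is the smallest p that 3 against 3 libraries allow. The ratio of inducible to constitutive HSP70 reads (HSPA1A plus HSPA1B over HSPA8) was 0.144, 0.116 and 0.105 in ATP6AP1 siRNA libraries, against 0.0719, 0.0785 and 0.0879 in control libraries. All ATP6AP1 siRNA libraries lay above all controls, 1.52-fold (exact permutation p = 0.1, 0.2 with Benjamini-Hochberg adjustment over the 4 ratios). The summed HSPA1A and HSPA1B reads did not pass the test above, and HSPA8 fell.

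The ratio of HSPA1A to HSPA1B was 0.436, 0.440 and 0.463 in ATP6AP1 siRNA libraries, against 0.651, 0.674 and 0.663 in control libraries, 1.48-fold lower without overlap (exact permutation p = 0.1, adjusted 0.2). This ratio was chosen after the values were seen and is a description.

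HSPE1 to HSPD1 was 0.293, 0.263 and 0.288 in ATP6AP1 siRNA libraries, against 0.251, 0.276 and 0.221 in control libraries. The groups overlapped, with 2 of 3 ATP6AP1 siRNA libraries above all controls (log2 difference 0.18, exact permutation p = 0.2, adjusted 0.2), so a different fall of the chaperonin ring and its lid was not shown.

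HSP90AA1 to HSP90AB1, the inducible over the constitutive cytosolic HSP90, was 1.45, 1.60 and 1.60 in ATP6AP1 siRNA libraries, against 1.47, 1.38 and 1.33 in control libraries. Again 2 of 3 ATP6AP1 siRNA libraries lay above all controls (log2 difference 0.15, exact permutation p = 0.2, adjusted 0.2).

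**Figure D3:**
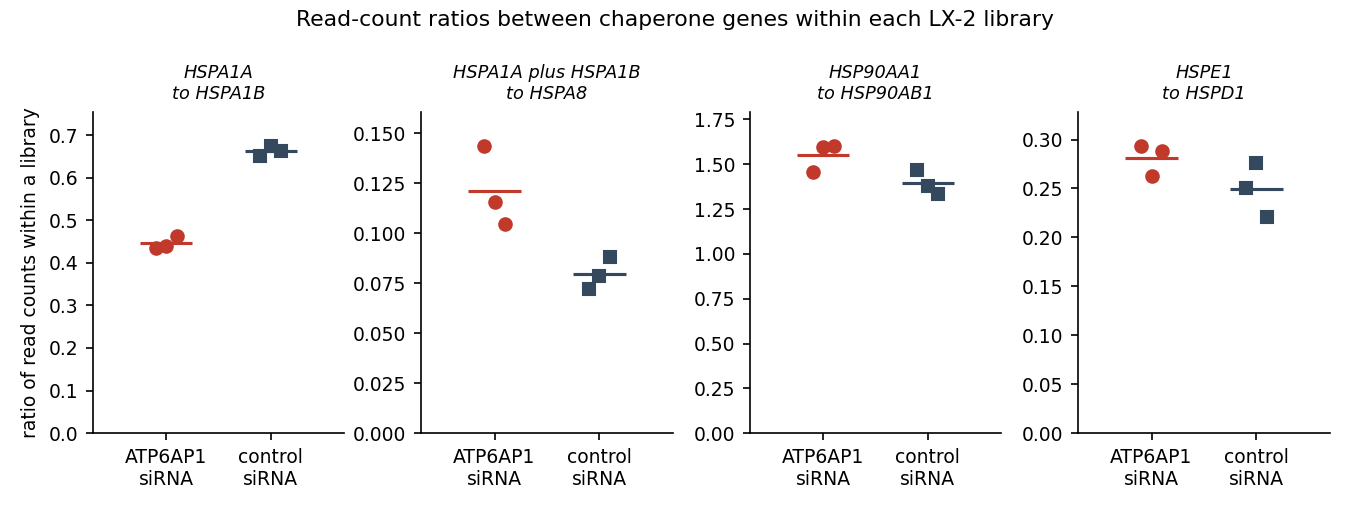
Ratios of read counts within each library for HSPA1A to HSPA1B, HSPA1A plus HSPA1B to HSPA8, HSP90AA1 to HSP90AB1 and HSPE1 to HSPD1, with ATP6AP1 siRNA libraries left of control siRNA libraries and a line at each mean. The first panel separates 0.436 to 0.463 in ATP6AP1 siRNA libraries from 0.651 to 0.674 in control libraries, and the last 2 panels overlap.

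The wider chaperone network was examined in 10 gene lists that hold none of the 10 genes, and some genes stand in several of these lists. Of their 107 distinct tested genes, 22 rose, 34 fell and 51 did not pass, with a median log2 fold change of -0.072, beside 26.7% raised and 26.6% lowered over all genes. With library size alone list medians moved by about as much as the median of all genes.

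Of the other HSP70 and HSP110 genes, 10 of 12 were tested, and 2 rose and 4 fell (median log2 fold change 0.0059), against 5 raised and 4 lowered with library size alone (median 0.14). HSPA4L, an HSP110 relative, rose 1.89-fold, with 58.6 ± 5.06 CPM in ATP6AP1 siRNA libraries and 30.9 ± 0.760 CPM in control libraries (SD, n = 3 each; edgeR adjusted p = 7.18e-07). Its close relative HSPA4 fell, with 213 ± 13.6 CPM in ATP6AP1 siRNA libraries and 325 ± 7.50 CPM in control libraries (adjusted p = 2.90e-06). These HSP110 genes thus moved in opposite directions while HSPH1, of the same family, did not pass.

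HSPA5, the HSP70 of the endoplasmic reticulum, fell to 996 ± 41.8 CPM in ATP6AP1 siRNA libraries, against 1270 ± 53.1 CPM in control libraries (edgeR adjusted p = 0.000176). HSPA14, an HSP70-like protein bound to ribosomes, fell as well (log2 fold change -0.41, adjusted p = 0.000789). HSPA9, the mitochondrial HSP70, rose slightly, with 638 ± 30.0 CPM in ATP6AP1 siRNA libraries and 561 ± 16.6 CPM in control libraries (log2 fold change 0.19, adjusted p = 0.0126), a call lost without ATP6AP1 siRNA replicate 2 (adjusted p = 0.0768) or control replicate 2 (adjusted p = 0.0503), and with the trend over gene span taken out (log2 fold change 0.12, adjusted p = 0.0867). HSPA6, a strictly heat-induced HSP70, stayed under the filter with 18 counts over the ATP6AP1 siRNA libraries and 26 over the control libraries.

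In the list of HSP90 genes and co-chaperones, all 16 were tested, 5 rose and 5 fell (median log2 fold change 0.014), against 8 raised and 4 lowered with library size alone (median 0.15). HSP90AB1, the constitutive cytosolic HSP90, fell, with 1245 ± 46.8 CPM in ATP6AP1 siRNA libraries and 1513 ± 68.4 CPM in control libraries (SD, n = 3 each), a log2 fold change of -0.28 (edgeR adjusted p = 0.000910). HSP90B1, the HSP90 of the endoplasmic reticulum, and TRAP1, that of mitochondria, had log2 fold changes of -0.30 and -0.30 (adjusted p = 0.000865 and 0.00560), and TRAP1 lost its call with library size alone (adjusted p = 0.0962). AHSA1, which stimulates the HSP90 ATPase, fell with a log2 fold change of -0.35 and PTGES3, the p23 co-chaperone, with -0.29.

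Of the J-domain genes other than DNAJB1, 19 of 20 were tested, 6 rose and 5 fell (median log2 fold change 0.00045), against 8 raised and 3 lowered with library size alone (median 0.14). DNAJB4, a close relative of DNAJB1, fell 1.64-fold, with 48.4 ± 2.22 CPM in ATP6AP1 siRNA libraries and 79.6 ± 3.50 CPM in control libraries (SD, n = 3 each; edgeR adjusted p = 1.61e-06). DNAJB5 and DNAJB6, which belong to the same subfamily, fell with log2 fold changes of -0.62 and -0.46. The subfamily did not move together, since DNAJB12, DNAJB11 and DNAJB2 rose (log2 fold changes 0.43, 0.32 and 0.23) and DNAJB9 and DNAJB14 did not pass. DNAJC9, a histone co-chaperone, rose with a log2 fold change of 0.46.

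Among BAG proteins and other adaptors of HSP70, all 11 were tested, 5 rose and 2 fell (median log2 fold change 0.16), against 7 raised and 1 lowered with library size alone (median 0.29). BAG1, a nucleotide exchange factor that tethers HSP70 to the proteasome, rose to 54.8 ± 1.05 CPM in ATP6AP1 siRNA libraries, against 43.0 ± 2.74 CPM in control libraries (SD, n = 3 each; edgeR adjusted p = 0.000928), and BAG5 rose 1.23-fold. BAG2, an inhibitor of the ubiquitin ligase CHIP, fell 1.31-fold. GRPEL2, an exchange factor of the mitochondrial HSP70, rose 1.67-fold, with 37.1 ± 3.05 CPM in ATP6AP1 siRNA libraries and 22.2 ± 2.23 CPM in control libraries (adjusted p = 2.23e-05).

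Small heat shock proteins other than HSPB1 were at low levels. Only 3 of 8 passed the filter, and none was called in either direction (edgeR; also 0 at an unadjusted p under 0.05, with DESeq2 and with limma-voom; median log2 fold change -0.40). HSPB8 had 2.09 ± 0.124 CPM in ATP6AP1 siRNA libraries and 1.55 ± 0.209 CPM in control libraries (SD, n = 3 each; edgeR adjusted p = 0.140), and HSPB6 had 1.66 ± 0.208 CPM in ATP6AP1 siRNA libraries and 2.20 ± 0.461 CPM in control libraries (adjusted p = 0.184).

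The TRiC chaperonin, which folds actin and tubulin, and its feeder prefoldin had 15 genes tested, of which 8 fell and none rose (edgeR; 0 raised also at an unadjusted p under 0.05, with DESeq2 and with limma-voom; median log2 fold change -0.24). CCT5 fell 1.33-fold, with 682 ± 22.7 CPM in ATP6AP1 siRNA libraries and 906 ± 1.50 CPM in control libraries (SD, n = 3 each; edgeR adjusted p = 2.33e-05). CCT4 and CCT6A, other subunits of the ring, fell 1.33-fold and 1.27-fold, and the prefoldin subunit PFDN1 fell 1.29-fold. With library size alone 2 genes of this list were called raised and 5 lowered, so its split depends on the scaling.

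Mitochondrial chaperones and proteases other than HSPD1 and HSPE1 went both ways, with 3 of 14 raised and 4 lowered (median log2 fold change 0.086). Beside GRPEL2 and TRAP1, HSCB, a J-domain protein of iron-sulfur cluster assembly, rose (log2 fold change 0.51, edgeR adjusted p = 0.000261), and LONP1, the matrix protease, fell (log2 fold change -0.37, adjusted p = 0.000487). With library size alone the list held 8 raised genes and 1 lowered gene.

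Of the heat shock factors and their regulators, 6 of 7 were tested, 1 fell and none rose (edgeR; 0 raised also at an unadjusted p under 0.05, with DESeq2 and with limma-voom; median log2 fold change -0.11, and 0.029 with library size alone). HSF1, the main heat shock factor, had 67.2 ± 7.07 CPM in ATP6AP1 siRNA libraries and 63.8 ± 5.59 CPM in control libraries (SD, n = 3 each; edgeR adjusted p = 0.493). HSF2 had 44.6 ± 1.26 CPM in ATP6AP1 siRNA libraries and 40.6 ± 3.44 CPM in control libraries (adjusted p = 0.145), and passed as raised with library size alone (adjusted p = 0.00826). HSBP1, which binds HSF1 and dampens it, fell to 165 ± 8.85 CPM in ATP6AP1 siRNA libraries, against 202 ± 11.5 CPM in control libraries (adjusted p = 0.00181). Levels of mRNA say nothing of the activity of HSF1, which is set on the protein.

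Of 19 genes known to be heat-inducible, many of them also in the lists above, 17 were tested. Among these 1 rose and 6 fell (median log2 fold change -0.14), against 3 raised and 5 lowered with library size alone. The riser was HSPA4L, and it and the fallers HSP90AB1, AHSA1 and PTGES3 were already counted above. HSP90AB1, taken above as the constitutive cytosolic HSP90, thus stands on this list too. SERPINH1, the collagen chaperone HSP47 of the endoplasmic reticulum, fell to 121 ± 3.07 CPM in ATP6AP1 siRNA libraries, against 154 ± 7.93 CPM in control libraries (SD, n = 3 each; edgeR adjusted p = 0.000271).

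Chaperones and sensors of the endoplasmic reticulum, a compartment with its own stress response, had 18 genes tested, 4 raised and 7 lowered (median log2 fold change -0.071). HSPA5, HSP90B1, DNAJC3 and DNAJC10 among the lowered genes and DNAJB11 among the raised were already counted in lists above. With library size alone 7 were raised and 4 lowered and the median was 0.066, so the balance of this list turns with the scaling. DDIT3, the stress transcription factor CHOP, rose 1.89-fold, with 81.0 ± 1.58 CPM in ATP6AP1 siRNA libraries and 42.9 ± 5.06 CPM in control libraries (SD, n = 3 each; edgeR adjusted p = 9.73e-07). XBP1, another transcription factor of that response, rose 1.32-fold, while the chaperone HSPA5 and the folding enzyme PDIA6 fell (log2 fold change -0.35 and -0.34).

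**Figure D4:**
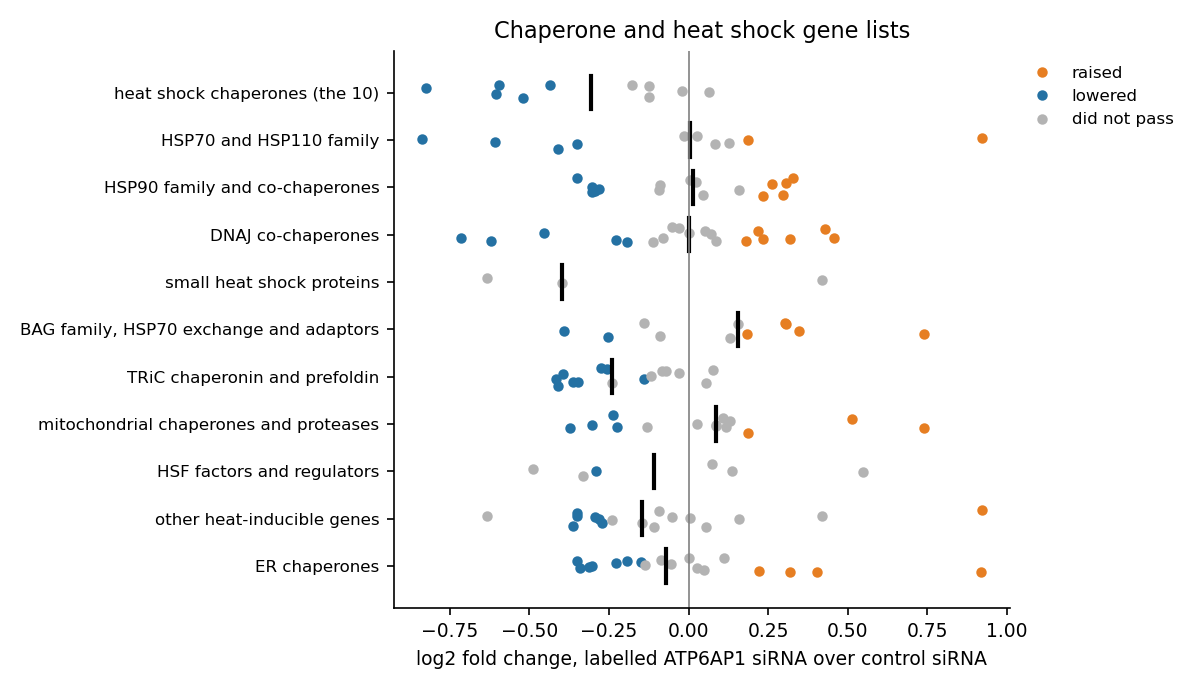
Log2 fold change, ATP6AP1 siRNA over control siRNA libraries, of every tested gene in the chaperone lists, 1 point for each gene, with the 10 heat shock chaperones in the top row and colour for genes raised, lowered or not past the edgeR test and black bars at the medians. The median of the 10 chaperones is -0.31 and the list medians run from -0.40 for small heat shock proteins to 0.16 for BAG proteins and adaptors.

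The genes whose levels over the 6 libraries were most like those of DNAJB1 and HSPD1 were looked up by Pearson's r of log2 CPM among 8341 genes with a mean of at least 20 CPM, as a description. For DNAJB1 these were CYFIP1 (0.994), ATP11A (0.992) and THRAP3 (0.989), and 45 genes exceeded 0.95. For HSPD1 they were CLIC4 (1.00), WDR77 (0.999) and NR3C1 (0.999), and 1353 genes exceeded 0.95. With 2 groups that are apart, r over 6 libraries mostly records the group difference.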

How the data were processed

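Per the labels' protocols, mRNA was selected on oligo(dT) beads and read from both ends, and groups and replicate numbers came from the sample titles. Named in the submitters' processing notes, without versions or roles, are GRCh38 (hg38), HISAT2, featureCounts, Trimmomatic, FastQC and DESeq2. The labels and notes do not state the annotation release, the strand setting or how multiply mapping reads were handled. The authors deposited estimated counts (expected counts) per Ensembl gene, not normalised, of which 12.3 to 13.9% in a library differed from a whole number as written, with no tolerance. Whole counts had been assumed, so the values were rounded and the unrounded ones run as an alternative. Total counts were 15644464 to 19656533. Each SE was derived from the edgeR test, as the absolute log2 fold change divided by the square root of the F statistic. The 95% intervals add and subtract that SE times a t quantile. These intervals cover replicate spread as fitted, and counting error is part of it.

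Symbols and coordinates came from GENCODE 44 (GRCh38) and promoters from RefSeq (GRCh38.p14). Genes kept by filterByExpr were compared with edgeR 4.0.16 (R 4.3.3), the two-sided quasi-likelihood F test, TMM scaling, all 6 libraries, group as the only term, and Benjamini-Hochberg adjustment over all 15372 genes at 0.05. CPM uses TMM library sizes, and the prior count for log2 CPM was 2. A level per kilobase divides mean CPM by transcript length. Only the main edgeR fit was tested on simulated counts, with a common dispersion and 200 changed genes, far fewer than were called here. That test does not cover a comparison in which so many genes differ, and the other steps were not simulated.

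The members and gene lists were chosen with earlier results of these data known. Named genes were the 10 members, ATP6AP1, HSP90AB1, HSPA5, HSPA9, HSF1, HSF2, SERPINH1, up to 4 genes per list with the lowest adjusted p past the test (2 as values where none passed), the 2 most abundant markers of each cell type, and the 3 genes most like DNAJB1 and HSPD1. HSPA6, DNAJB2, DNAJB9, DNAJB11, DNAJB12 and DNAJB14 were chosen after their values were seen. A gene named by the rule is not reported here. Alternatives replaced the test by DESeq2 1.42.0 or limma-voom (limma 3.58.1), the scaling by DESeq2's size factors or library size alone, and the filter by none or by at least 5 CPM in 3 libraries. Others were unrounded values, a fit with the trend of each library over gene span taken out, summed HSPA1 copies, a replicate block, and each replicate left out. The HSPA1A to HSPA1B ratio was added after seeing the data.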

Additional observations from a re-analysis of the deposited data

How the results depend on the processing

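HSPA8, HSPB1, HSPD1 and HSPE1 kept their direction and call under each of 16 alternatives. HSPA1A kept them under 15, all of which keep the deposited division of reads between the HSPA1 copies. In the other, the summed HSPA1A and HSPA1B reads did not pass (edgeR adjusted p = 0.0546). For HSPA8, HSPA1A, HSPB1, HSPD1 and HSPE1, in this order, log2 fold changes ran from -0.85 to -0.69, -0.67 to -0.46, -0.55 to -0.38, -0.66 to -0.47 and -0.51 to -0.30. The count of raised members was 1 with library size alone (HSPH1), and 0 in the others. The count of lowered members was 4 to 6, with BAG3 as the sixth without ATP6AP1 siRNA replicate 1 and with the span trend removed (log2 fold change -0.23, adjusted p = 0.0385). HSPA1B lay above 0 in 4 settings: 0.12 with library size alone, 0.087 without control replicate 3, 0.059 without ATP6AP1 siRNA replicate 3 and 0.056 with the span trend removed. ATP11A turned to 0.21 with the span trend removed, and the cause was not tested. Of 47 other genes named by the rule, 39 kept call and direction in all settings, 7 lost or gained a call in at least 1 and 1 turned direction.

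Leaving out each replicate gave log2 differences of 0.47 to 0.70 for the ratio of HSPA1A plus HSPA1B to HSPA8, -0.60 to -0.55 for HSPA1A to HSPA1B, 0.12 to 0.20 for HSP90AA1 to HSP90AB1 and 0.095 to 0.26 for HSPE1 to HSPD1. Same-numbered replicates did not deviate together (r = -0.35, -0.056 and -0.31), but this cannot show that they share nothing beyond a number. With the replicate block 5 members were lowered and 0 raised, and 3619 genes were raised and 3576 lowered over all genes. With 3 libraries a group, exact tests of single ratios cannot go below 0.1.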
